A study of Mus musculus with 2 samples.

Results

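The barcodes described here are those that carried the messages of *Ccr7* and *Fscn1*, the combination that marks mature, migratory dendritic cells, among myeloid cells of injured mouse muscle. Members were chosen by these measured counts: a barcode, the tag of 1 droplet and nominally of 1 cell, was a member if its *Ccr7* and *Fscn1* counts summed to at least 3 UMIs (unique molecular identifiers, that is, counted transcripts). It also had to have at most 20% of its UMIs from mitochondrial genes and at most 4 UMIs from the collagen genes *Col1a1*, *Col3a1* and *Col1a2* together. This gate held 80 of the 6724 deposited barcodes, 12 in the Gata3KO library and 68 in the Wt library. Both libraries came from tibialis anterior muscle taken on day 4 after an injection of 50 µl of 10 µM cardiotoxin, a toxin from the venom of the cobra *Naja pallida* that destroys muscle fibres. Cells were sorted as negative for the dead-cell dye Zombie aqua, negative for the neutrophil antigen Ly6G and positive for CD45 and CD11b, and 8000 cells were loaded for each library on a 10x Genomics 3′ chip.

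The Gata3KO mice were of the strain C57BL/6:Cx3cr1CRExGata3fl/fl, in which Cre recombinase is made where the *Cx3cr1* gene is active and removes the floxed part of *Gata3*, the gene of a zinc-finger transcription factor. The Wt mice were C57BL/6 and carried neither the Cre nor the floxed allele, so the genotypes differ in both. No source used here gives the number, age or sex of the mice, or whether animals were pooled. With 1 library per genotype no test is possible, and a difference between the libraries cannot be told apart from one between animals, sorts or chips. Intervals given below are exact 95% intervals that cover counting error only.

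Dendritic cells sample their surroundings, and those that mature leave the tissue through lymphatic vessels for the draining lymph node, where they present antigen to T cells. Maturation is known to bring in the chemokine receptor CCR7, which guides this migration, the actin-bundling protein fascin (Fscn1), costimulatory molecules and survival factors, under the control of the NF-κB family that includes RelB, while the uptake receptors of the immature state are lost. The same cells also make molecules that dampen T cells, among them the amino acid oxidase IL4I1 and the ligand PD-L1. Dendritic cells of this kind respond to type I interferon, which induces a large set of antiviral genes and also raises MHC class I presentation.

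The libraries were of like size and differed in quality. The Gata3KO table held 3434 barcodes with 19422237 UMIs and the Wt library 3290 barcodes with 15392330 UMIs. Within the mitochondrial and collagen limits there were 1490 Gata3KO barcodes with a median of 4609.5 UMIs and 2022 Wt barcodes with a median of 3355 UMIs. The mitochondrial limit removed 1935 Gata3KO barcodes and 1250 Wt barcodes. Of these, 0 in the Gata3KO library and 4 in the Wt library reached the count of *Ccr7* and *Fscn1*. The libraries shared 2 barcodes by sequence, of which 0 were members in either.

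*Gata3* could not be checked in the members. It had 0 UMIs in the 12 Gata3KO members and 0 in the 68 Wt members, which by a floor of 3 cells allows a share of cells with a UMI of up to 25% in the Gata3KO members and 4.41% in the Wt members. Over all barcodes *Gata3* had 8 UMIs in the Gata3KO library and 8 in the Wt library, and a 3′ tag need not lie in the floxed part. *Cx3cr1*, whose activity drives the Cre, was scarce in the members, with 1 UMI in 1 of 12 Gata3KO members and 13 UMIs in 9 of 68 Wt members. It reached 411 CPM (UMIs scaled to a common total, over the summed barcodes) in Gata3KO barcodes with C1q messages, described below, and 300 CPM in such Wt barcodes. Whether the Cre had acted in the members or in their precursors was not tested.

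Members made up a smaller share of the Gata3KO library. They were 0.805% of the 1490 Gata3KO barcodes within the limits (Clopper-Pearson interval 0.417 to 1.40%) and 3.36% of the 2022 Wt barcodes (2.62 to 4.24%). The difference was -2.56 percentage points (interval -3.52 to -1.60). The sort on CD11b and the mitochondrial limit chose the barcodes behind these shares. With a limit of 10% mitochondrial UMIs the share was 1.71% in the Gata3KO library and 5.61% in the Wt library, and with no such limit 0.351% and 2.22%. Since deeper barcodes reach the gate more easily, every barcode was also thinned to 2000 UMIs. In that setting 4 of 1242 Gata3KO barcodes (0.322%) and 32 of 1411 Wt barcodes (2.27%) were members. A gate made of other genes, at least 3 UMIs from *Ccl22*, *Il4i1* and *Cacnb3* together, took 1.14% of the Gata3KO barcodes and 5.14% of the Wt barcodes.

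**Figure D1:**
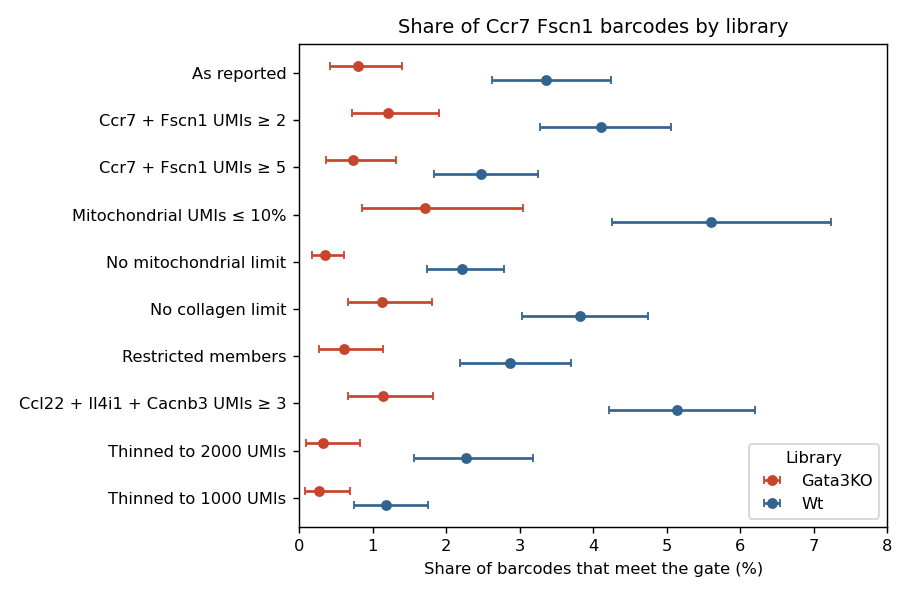
Share of barcodes that met the gate (x axis, percent of the barcodes within the limits) in the Gata3KO library (red) and the Wt library (blue), as reported and under other limits, gates and depths (rows); bars are exact 95% binomial intervals. The Gata3KO point lies left of the Wt point in each of the 10 rows, from 0.272% against 1.18% after thinning to 1000 UMIs up to 1.71% against 5.61% with a mitochondrial limit of 10%.

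The gate had a soft lower edge. A single Gata3KO barcode and 9 Wt barcodes sat at exactly 3 UMIs of *Ccr7* and *Fscn1*, just inside, and 6 Gata3KO barcodes and 15 Wt barcodes sat at 2 UMIs, just outside. Of the 5 other genes of the label (*Ccl22*, *Il4i1*, *Cacnb3*, *Ccl5* and *Relb*), the barcodes just inside had a median of 4 with a UMI in both libraries, and those just outside a median of 2 in the Gata3KO library and 3 in the Wt library. The median sum was 8 UMIs in Gata3KO members and 8.5 UMIs in Wt members, with highest values of 65 and 64 UMIs. *Ccr7* (chromosome 11, 99144196 to 99155077 in mm10, minus strand) had UMIs in 12 of 12 Gata3KO members and 65 of 68 Wt members. *Fscn1* (chromosome 5, 142960343 to 142973185, plus strand) had UMIs in 8 and 51.

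The 5 label genes that the gate did not use were common in the members. They came with the label, so this is a description and no support for it. At least 3 of those 5 genes had a UMI in 10 of 12 Gata3KO members (83.3%) and in 63 of 68 Wt members (92.6%). Among the other barcodes within the limits the same held for 7 of 1478 in the Gata3KO library (0.474%) and 60 of 1954 in the Wt library (3.07%). All 5 had a UMI in 4 Gata3KO members and 29 Wt members. The depth of the members was alike, with a median of 7649.5 UMIs in the Gata3KO members (1530 to 16375) and 7685.5 UMIs in the Wt members (1064 to 60628). Their mitochondrial share differed, with a median of 5.38% in the Gata3KO members and 2.78% in the Wt members, and its part in the results was not tested.

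A few members stood apart and weigh on every sum. One Wt member with 60628 UMIs, 10.2% of all UMIs of the Wt members, had 125 UMIs of *Cdh5* and 94 of *Pecam1*, the genes of endothelial junction proteins, together with 773 UMIs of *Fabp4* and none of *Ccr7*. One Gata3KO member with 12437 UMIs had 135 UMIs of the complement genes *C1qa*, *C1qb* and *C1qc*, which mark macrophages, and carried all 252 *Cxcl9* UMIs of its group. One Gata3KO member with 15128 UMIs carried 2 of the 5 marker genes and 31 UMIs each of *Tnfsf9* and *Nr4a1*. Results are therefore also given for restricted members, which had at least 3 of the 5 markers, fewer than 5 C1q UMIs and fewer than 5 UMIs of *Cdh5* and *Pecam1*. This restriction was chosen after seeing the data and left 9 Gata3KO members and 58 Wt members. As the 5 markers help define the restricted members, their own values there are given only as a description. The collagen limit weighs more. It kept out 5 Gata3KO barcodes with 263345 UMIs in all, more than the 98433 UMIs of the Gata3KO members, and 10 Wt barcodes with 444334 UMIs, and of these 1 and 5 carried at least 3 of the markers. Doublets could not be called, as the caller marked 0 barcodes in either library.

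Markers of other cells showed where the members sit among myeloid cells. *Xcr1*, the receptor that defines type 1 conventional dendritic cells, and *Clec10a* and *Mgl2*, lectins of type 2 conventional dendritic cells, had 0 UMIs in both groups. Of 15 listed markers of type 2 cells, 10 had a UMI in the Gata3KO members and 12 in the Wt members, and *Cd209a* had one in 0 and 3 members. Of 12 markers of type 1 cells, 5 had a UMI in the Gata3KO members and 8 in the Wt members, at summed levels of 711 and 778 CPM. *Flt3*, the growth factor receptor of the dendritic lineage, was seen in 7 Gata3KO members and 45 Wt members. *Itgam*, which encodes the CD11b used in the sort, had UMIs in 0 Gata3KO members and 6 Wt members, which is a statement on message and not on the sorted protein. Of 8 T and NK cell markers, 1 had a UMI in the Gata3KO members and 2 in the Wt members, at summed levels of 193 and 443 CPM, while *Cd3d*, *Cd3e* and *Cd3g* of the T cell receptor complex had 0 UMIs in both. Nearly all of it was *Klrd1*, which encodes the NK cell receptor chain CD94, with 19 UMIs in 4 Gata3KO members and 260 UMIs in 44 Wt members (log2 ratio -1.18, -1.94 to -0.51). *Klrd1* was also present in the *Cd209a* barcodes, at 624 CPM in the Gata3KO and 690 CPM in the Wt library, and scarce in the C1q barcodes (0.99 and 4.98 CPM). *Trac* had 0 and 3 UMIs, and the haemoglobin genes had 0 in both. Of 6 markers of plasmacytoid dendritic cells, 2 had a UMI in the Gata3KO members and 3 in the Wt members, at 264 and 1343 CPM, mostly *Bst2* and *Tcf4*; *Bst2* is also on the interferon list. Macrophage genes summed to 4561 CPM in the Gata3KO members and 3703 CPM in the Wt members, monocyte genes to 1290 and 3587 CPM, and fibroblast and endothelial markers to 91.4 and 576 CPM, of which 256 Wt UMIs came from the endothelial-gene barcode. Most of the monocyte sum was 1 gene, *Ifitm3*, with 90 of 127 UMIs in the Gata3KO members and 1660 of 2129 in the Wt members. Of the 4 measured monocyte genes 2 were higher in the Gata3KO members, among them *Ccr2* (132 and 62.3 CPM), and 2 were lower. The part of these genes in the differences below was not tested.

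To show what the gate selects, the members of each library were set against barcodes of the same library with at least 5 C1q UMIs and neither *Cd209a* nor the gate genes (C1q barcodes, 934 in Gata3KO and 978 in Wt), and against barcodes with at least 3 *Cd209a* UMIs and at most 2 of the gate genes (*Cd209a* barcodes, 44 and 69). Of 2835 measured genes, 495 (17.5%) were over 2-fold higher and 528 (18.6%) over 2-fold lower in the Gata3KO members than in the Gata3KO C1q barcodes. In the Wt library these were 425 (15.3%) and 436 (15.7%) of 2785. These contrasts follow from how the barcodes were chosen and are given as a description.

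The members carried a maturation profile far from that of C1q barcodes in both libraries. *Il4i1* (chromosome 7, 44816387 to 44840809, plus strand) stood at 1168 CPM in the Gata3KO members against 2.87 CPM in the Gata3KO C1q barcodes, and at 1552 CPM in the Wt members against 13.1 CPM in the Wt C1q barcodes. *Cacnb3* (chromosome 15, 98630840 to 98644529, plus strand), a calcium channel beta subunit, had 386 against 0.69 CPM in the Gata3KO library and 546 against 1.80 CPM in the Wt library. *Socs2*, a suppressor of cytokine signalling, had 477 against 2.47 CPM and 741 against 3.59 CPM. Other genes of this kind were *Apol7c* (284 against 0.20 CPM in Gata3KO, 361 against 2.07 CPM in Wt), the Rab GTPase-activating protein gene *Tbc1d4* (1006 against 11.9 CPM, 969 against 10.5 CPM) and *Traf1*, a TNF receptor adaptor (1615 against 36.0 CPM, 1579 against 64.7 CPM). *H2-Eb2*, an MHC class II beta chain gene, had 457 CPM in the Gata3KO members and 0 UMIs in the Gata3KO C1q barcodes, and 276 against 0.97 CPM in the Wt library.

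Macrophage genes lay at the other end. All 22 measured macrophage genes were over 2-fold lower in members than in C1q barcodes, in the Gata3KO library and in the Wt library, with list medians of -4.56 and -3.85 on the log2 scale with 10 CPM added. *Lyz2*, the macrophage lysozyme gene, stood at 366 CPM in the Gata3KO members against 12638 CPM in the Gata3KO C1q barcodes, and at 430 CPM in the Wt members against 8029 CPM in the Wt C1q barcodes. *Adgre1*, which encodes the macrophage antigen F4/80, had 0 UMIs in the Gata3KO members against 325 CPM, and 1.68 CPM in the Wt members against 244 CPM. Lysosome genes were lower too, with medians of -1.77 in the Gata3KO library and -2.35 in the Wt library. NF-κB pathway genes were higher in members than in C1q barcodes in 20 of 21 measured genes of the Gata3KO library (median 1.23) and in 19 of 19 of the Wt library (median 1.46), costimulation genes had medians of 2.78 and 2.41, and MHC class II genes 3.30 and 1.99.

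Against the *Cd209a* barcodes the members again had higher levels of the maturation genes. Of 2785 genes in the Gata3KO library, 457 (16.4%) were over 2-fold higher and 442 (15.9%) lower, and of 2829 in the Wt library 356 (12.6%) and 400 (14.1%). MHC class II genes had a median of -0.35 in the Gata3KO library (interval over genes -1.50 to 0.13, 8 of 12 below 0 and 4 over 2-fold lower) and of -0.40 in the Wt library (-0.91 to -0.17, 10 of 12 below 0 and 2 over 2-fold lower). Summed per barcode, they had a median of 392 UMIs per 10000 in the Gata3KO members against 660 in the Gata3KO *Cd209a* barcodes, and of 425 in the Wt members against 691 in the Wt *Cd209a* barcodes. *Fabp5*, a fatty acid binding protein gene, was among the 10 genes furthest higher, at 2337 CPM in the Gata3KO members against 108 CPM in the Gata3KO *Cd209a* barcodes and at 3006 CPM in the Wt members against 58.8 CPM in the Wt *Cd209a* barcodes. *Clec10a* was at 0 in the members of both libraries, against 689 CPM in the Gata3KO and 518 CPM in the Wt *Cd209a* barcodes. NF-κB pathway genes had medians of 1.03 and 0.97, and markers of type 2 cells, the list that holds the gene used to pick the *Cd209a* barcodes, of -1.50 and -2.10.

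**Figure D2:**
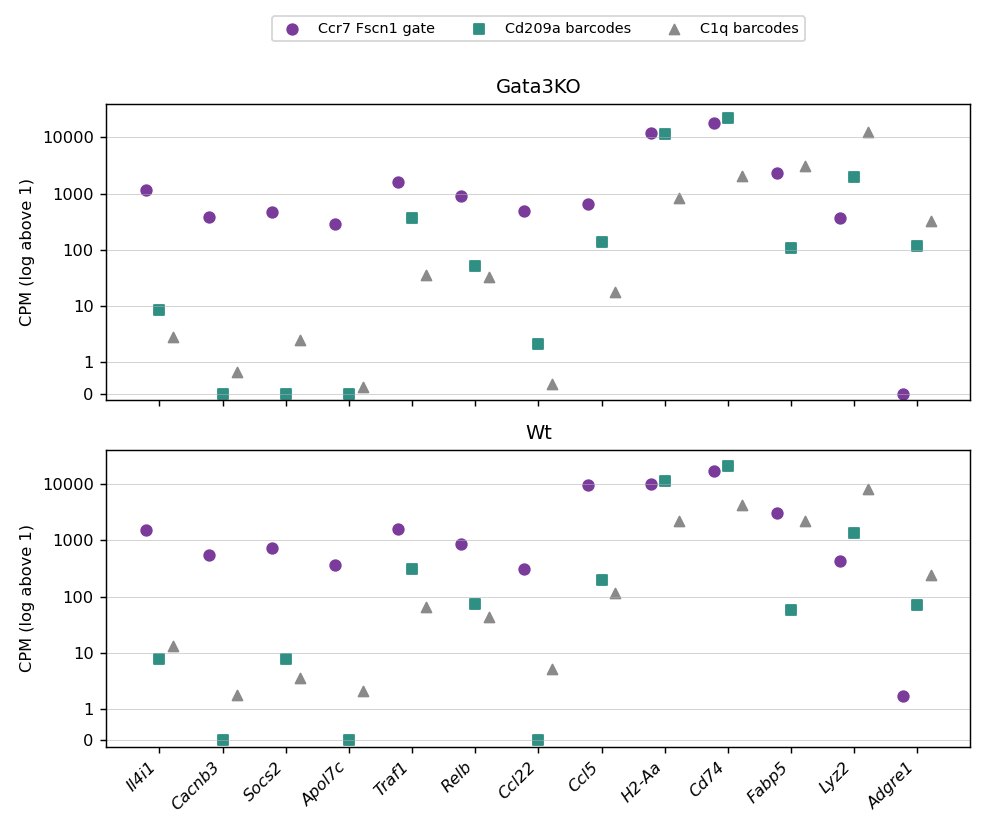
Summed level of 13 genes (y axis, CPM, logarithmic above 1 and linear below) in Ccr7 Fscn1 members (circles), Cd209a barcodes (squares) and C1q barcodes (triangles) of the Gata3KO library (upper panel) and the Wt library (lower panel). The members lie highest for Il4i1, Cacnb3, Socs2, Apol7c, Traf1, Relb, Ccl22 and Ccl5 in both panels, share a like level of H2-Aa and Cd74 with the Cd209a barcodes, and lie lowest for Lyz2 and Adgre1.

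Between the genotypes, the label genes other than *Ccl5* differed by less than 2-fold, while *Ccl5* was lower in the Gata3KO members. The Gata3KO members summed to 98433 UMIs, so 1 UMI is worth 10.2 CPM there, and the Wt members to 593523 UMIs, so 1 UMI is worth 1.68 CPM. *Relb* (chromosome 7, 19606217 to 19629438, minus strand), the NF-κB subunit tied to dendritic cell maturation, had 894 CPM in the Gata3KO members and 847 CPM in the Wt members, a log2 ratio (Gata3KO over Wt throughout) of 0.08 (-0.27 to 0.41). *Ccr7* stood at 996 and 1041 CPM (-0.06, -0.39 to 0.24) and *Fscn1* at 691 and 837 CPM (-0.28, -0.67 to 0.09). As gate genes, these are given only as a description.

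The next label genes differed by less than 2-fold. *Il4i1* had 1168 CPM in the Gata3KO members and 1552 CPM in the Wt members (log2 ratio -0.41, interval -0.70 to -0.13). In UMI counts per member, from the shallowest to the deepest Gata3KO barcode, *Il4i1* had 3, 5, 0, 6, 3, 8, 3, 14, 17, 21, 0 and 35, and the Wt members had a median of 10.5 and a highest value of 53. The 2 Gata3KO members at 0 were also at 0 for *Cacnb3*. *Cacnb3* had 386 and 546 CPM (-0.50, -1.02 to -0.01). *Ccl22* (chromosome 8, 94745590 to 94751699, plus strand), a chemokine that draws regulatory T cells, had 488 CPM in the Gata3KO members and 305 CPM in the Wt members (0.68, 0.19 to 1.14). That difference was carried by the C1q-bearing barcode with 23 of the 48 Gata3KO UMIs, and in restricted members the log2 ratio of *Ccl22* was 0.09. Without the collagen limit *Il4i1* (-1.37), *Cacnb3* (-1.44), *Relb* (-0.88) and *Ccl22* (-0.37) were all lower in the Gata3KO barcodes (10 CPM added).

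*Ccl5* (chromosome 11, 83525778 to 83530518, minus strand), a chemokine that attracts T cells and monocytes, was the label gene that set the groups apart. In UMI counts per member, from the shallowest to the deepest Gata3KO barcode, it had 1, 4, 0, 1, 2, 0, 38, 9, 0, 2, 6 and 1. The Wt members had a median of 20 UMIs and a highest value of 895. At least 10 UMIs were found in 1 of 12 Gata3KO members and in 35 of 68 Wt members, and at least 100 UMIs in 0 and 18. The groups overlapped at the low end, where 3 Gata3KO members and 8 Wt members had 0. Summed, *Ccl5* had 650 CPM (64 UMIs) in the Gata3KO members and 9705 CPM (5760 UMIs) in the Wt members, a log2 ratio of -3.90 (-4.28 to -3.54). In restricted members, which *Ccl5* itself helps to define, it was -4.00, with 49 UMIs in 9 Gata3KO members and 5417 UMIs in 58 Wt members. Of those 49 UMIs, 38 lay in 1 Gata3KO member. Without the collagen limit the log2 ratio of *Ccl5* was -4.88 (10 CPM added).

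A depth-matched view of *Ccl5* gave the same order. Per 10000 UMIs of a barcode the median was 3.86 in the Gata3KO members and 21.9 in the Wt members. After thinning to 2000 UMIs, a *Ccl5* UMI remained in 4 of 11 Gata3KO members (36.4%, 10.9 to 69.2%) and in 49 of 60 Wt members (81.7%, 69.6 to 90.5%), which left out 1 and 8 shallower members. Unthinned, 75% of Gata3KO members and 88.2% of Wt members had a UMI. In the C1q barcodes the thinned share was 1.04% in the Gata3KO library (median depth 6630.5 UMIs before thinning) and 9.14% in the Wt library (5128 UMIs). In the *Cd209a* barcodes it was 11.9% (3.98 to 25.6%) and 15.2% (7.51 to 26.1%), and these intervals overlap. Free RNA was not estimated. The summed level was 141 CPM in the Gata3KO and 201 CPM in the Wt *Cd209a* barcodes, and 17.9 and 115 CPM in the C1q barcodes. *Ccl5* was thus lower in the Gata3KO library in all 3 sets of barcodes, and whether the sets differ in this was not tested.

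Within the Wt members *Ccl5* went with other messages. The 35 Wt members with at least 10 *Ccl5* UMIs had a median of 10741 UMIs in all, with *Isg15* at 2730 CPM, *Relb* at 1017 CPM and *Il4i1* at 1830 CPM. The 33 Wt members below that count had a median of 3424 UMIs, with *Isg15* at 1074 CPM, *Relb* at 590 CPM and *Il4i1* at 1129 CPM. These 33 include the endothelial-gene barcode, whose 60628 UMIs count in the total behind those CPM values. It held 37 UMIs of *Isg15*, 1 of *Relb* and 0 of *Il4i1*, which lowers the *Relb* and *Il4i1* values of this subset. Its part in the difference between the subsets was not tested. The subsets were cut by a measured count that deeper barcodes reach more easily, and no test was made.

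**Figure D3:**
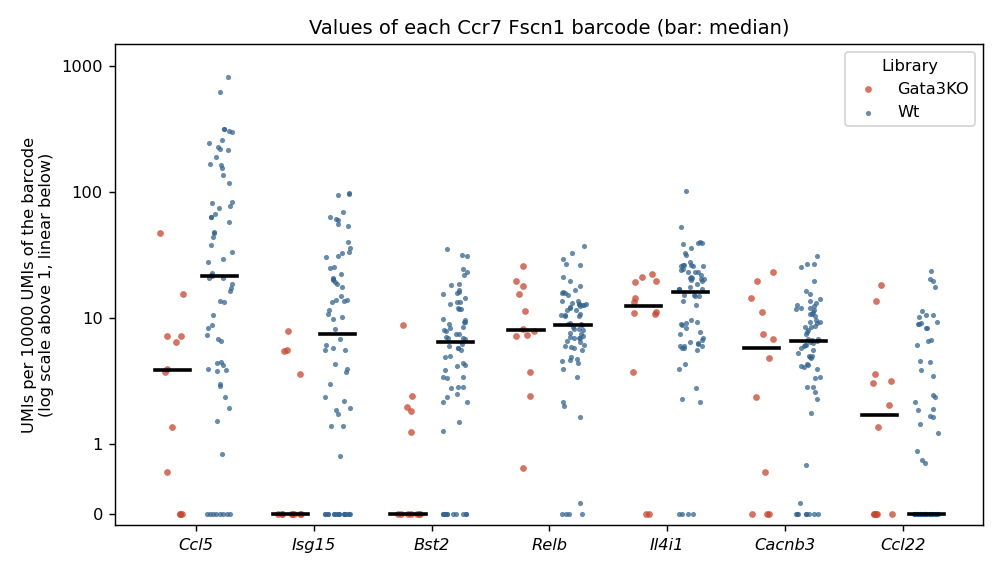
UMIs of 7 genes per 10000 UMIs of the barcode (y axis, logarithmic above 1 and linear below) in each of the 12 Gata3KO members (red, left of each pair) and 68 Wt members (blue, right); bars are medians. For Ccl5 the Gata3KO median is 3.86 and the Wt median 21.9, for Isg15 0 and 7.56, and for Il4i1 12.4 and 16.2, with overlap between the groups in every gene.

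Genes induced by interferon were lower in the Gata3KO members than in the Wt members. Across all 2610 genes with a mean of at least 50 CPM, 179 (6.86%) were over 2-fold higher and 194 (7.43%) over 2-fold lower in the Gata3KO members, with a median log2 ratio of 0.06 (10 CPM added, as for all lists). Of the 45 interferon-response genes listed, 37 passed the level filter. Among these 37, 26 were over 2-fold lower and 1 over 2-fold higher, 33 lay below 0, and the median was -1.78 (interval over genes -2.21 to -1.05). With the 3 genes at 0 in the Gata3KO members set to 3 UMIs the median was -1.56. Without the collagen limit it was -0.80. In restricted members 35 genes were measured, 28 of them over 2-fold lower, with a median of -2.26, where 226 (9.2%) of all 2457 genes were over 2-fold higher and 248 (10.1%) lower.

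*Isg15* (chromosome 4, 156199424 to 156200818, minus strand), a ubiquitin-like protein attached to others in the antiviral response, had 26 UMIs in 4 of 12 Gata3KO members (264 CPM) and 1230 UMIs in 51 of 68 Wt members (2072 CPM). Its log2 ratio was -2.97 (-3.59 to -2.41), and -2.11 without the collagen limit (10 CPM added). The 4 Gata3KO members with a UMI had 1, 7, 10 and 8. After thinning, 4 of 11 Gata3KO members (36.4%, 10.9 to 69.2%) and 41 of 60 Wt members (68.3%, 55.0 to 79.7%) kept a UMI, and the intervals overlap. *Irf7*, the transcription factor that amplifies the interferon response, had 234 CPM in the Gata3KO members and 1405 CPM in the Wt members (-2.59, -3.25 to -1.99) and was seen in 6 and 54 members. *Bst2*, a membrane protein that tethers virus particles, had 213 and 1147 CPM (-2.43) and was seen in 5 and 57 members. Of its 681 Wt UMIs, 190 lay in the endothelial-gene barcode, and in restricted members the log2 ratio of *Bst2* was -2.12. *Ly6e*, a lipid-anchored surface protein, had 376 and 1193 CPM (-1.67).

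The antiviral genes of the Ifit family were near the counting limit of the Gata3KO members. *Ifit1* had 1 UMI in the Gata3KO members and 146 UMIs in 30 Wt members, and *Ifit3* had 3 and 173 UMIs. *Ifit2* and *Ifit3b* had 0 UMIs in the Gata3KO members and 65 UMIs each in the Wt members, at least 3.59-fold lower with a floor of 3 UMIs over the group. *Slfn1* had 0 and 60 UMIs, at least 3.32-fold lower. *Ifit3* and *Ifit3b* are close copies of each other, so how reads were split between them is uncertain.

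Not every listed gene followed. *Cxcl9*, a chemokine gene of the interferon gamma response, had 252 UMIs in the Gata3KO members and 93 UMIs in the Wt members (log2 ratio 4.03), but all of the Gata3KO UMIs lay in the C1q-bearing barcode, and restricted Gata3KO members had 0. *Mx1*, a guanosine triphosphatase that acts against viruses, had a log2 ratio of -0.13, and *Irf1*, a transcription factor of the response, of 0.14.

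Interferon genes were also lower in the other Gata3KO barcodes. In the *Cd209a* barcodes all 34 measured interferon genes lay below 0, with a median of -0.92 and 15 over 2-fold lower, where 46 of 2851 genes (1.61%) were over 2-fold lower and 36 (1.26%) higher. In the C1q barcodes all 33 lay below 0, with a median of -1.70 and 31 over 2-fold lower, where 91 of 2850 genes (3.19%) were over 2-fold lower and 17 (0.596%) higher. The summed list per barcode had a median of 32.1 UMIs per 10000 in the Gata3KO members (13.8 to 301) and 91.0 in the Wt members (12 to 506). The medians were 31.7 and 105 in the *Cd209a* barcodes, and 26.1 and 97.0 in the C1q barcodes. Whether the sets of barcodes differ in this was not tested.

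The promoter sequences of these genes were also searched. Interferon acts on promoters through the interferon-stimulated response element, searched here as GAAANNGAAA on both strands in the 250 bases before each gene's start, with overlapping matches kept (sequences from RefSeq, GRCm38.p6). It was found before 936 of 27025 genes (3.46%) and before 90 of the 2078 measured genes with a sequence (4.33%). Of the measured interferon-response genes 28 had a sequence and 15 of them held the motif (53.6%), against 0 of 18 NF-κB pathway genes and 1 of 9 MHC class II genes. As that list was chosen for interferon induction, its share is given as a description. Among the genes named below for restricted members, 2 of 7 lower ones with a sequence held the motif (28.6%), and 0 of 6 higher ones. The 2 were *Isg15* and *Ifit1*, which are on the interferon-response list and already counted there, so they add nothing to it. *Isg15* and *Ifit1* are shown as interferon genes with a large difference whose promoters hold the motif more than once; capitals mark the matches.
Isg15, chr4:156200819-156201068, minus strand: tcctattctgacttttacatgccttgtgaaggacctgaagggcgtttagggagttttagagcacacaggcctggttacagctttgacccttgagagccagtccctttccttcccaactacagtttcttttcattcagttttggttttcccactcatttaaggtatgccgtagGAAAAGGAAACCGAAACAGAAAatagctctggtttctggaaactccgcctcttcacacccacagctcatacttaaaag
Ifit1, chr19:34640639-34640888, plus strand: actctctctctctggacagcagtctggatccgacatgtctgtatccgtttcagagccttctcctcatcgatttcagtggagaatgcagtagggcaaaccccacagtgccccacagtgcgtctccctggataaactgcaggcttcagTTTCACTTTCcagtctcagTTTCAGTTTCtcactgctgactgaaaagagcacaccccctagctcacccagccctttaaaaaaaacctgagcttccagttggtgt
The 3 matches before *Isg15* overlap in 1 run, while the 2 before *Ifit1* lie apart and are read on the opposite strand. The same window held 0 matches before *Irf7* and before *Ccl22*. A match is a stretch of letters and says nothing on whether a factor was bound in these cells.

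**Figure D4:**
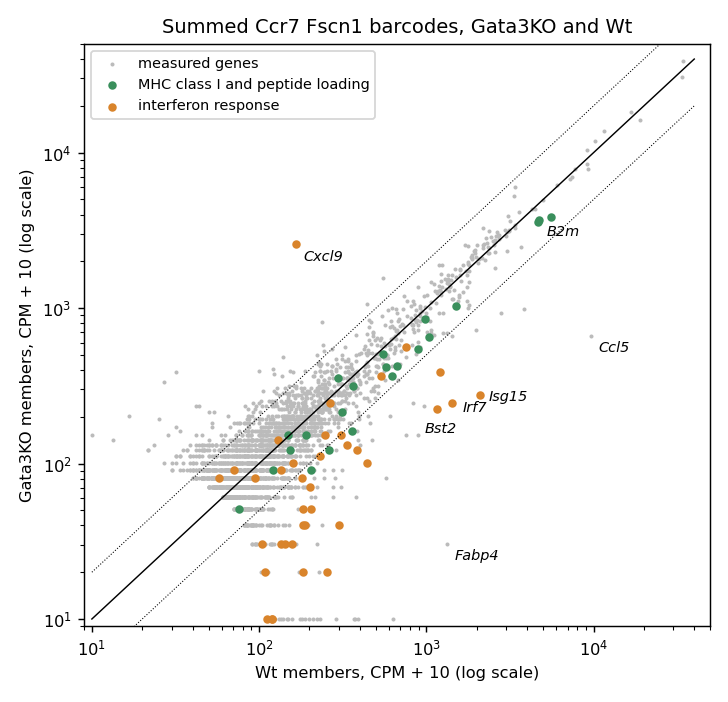
Summed level of each measured gene in the Gata3KO members (y axis) and the Wt members (x axis), in CPM with 10 added, both axes logarithmic; the solid line marks equal levels and the dotted lines 2-fold. Interferon-response genes (orange) lie mostly below the lower dotted line, 26 of 37, MHC class I genes (green) lie just below the solid line, and Ccl5 stands at 650 CPM in Gata3KO against 9705 CPM in Wt.

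MHC class I genes, which interferon also raises, were lower by a smaller amount. Of 23 listed genes of class I chains, the proteasome and peptide loading 22 were measured and 20 lay below 0, with a median of -0.50 (-0.67 to -0.32), while 3 were over 2-fold lower. *B2m*, the light chain of class I, had a log2 ratio of -0.36, the class I heavy chain genes *H2-K1* and *H2-D1* of -0.38 and -0.53, the immunoproteasome genes *Psmb8* and *Psmb9* of -0.55 and -0.78, and the peptide transporter gene *Tap1* of -0.48. Class I heavy chain genes are near-identical copies, so their single values are uncertain. The list median was -0.62 in restricted members, and -0.72 in the *Cd209a* barcodes and -0.79 in the C1q barcodes.

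MHC class II genes were close between the genotypes in the members. The median of the 12 genes was 0.16 (-0.69 to 0.56) -0.10 in restricted members and -0.88 without the collagen limit, and it was -1.17 in the C1q barcodes. *Cd74*, the invariant chain that guides class II molecules, had 18276 CPM in the Gata3KO members and 16795 CPM in the Wt members (log2 ratio 0.12, 0.05 to 0.19). The chain genes *H2-Aa*, *H2-Ab1* and *H2-Eb1* had log2 ratios of 0.21, 0.19 and 0.26. *H2-Eb2* was higher (0.73, 0.22 to 1.21). *H2-Ob*, which encodes a regulator of peptide loading, had 3 UMIs in 2 Gata3KO members and 47 UMIs in 18 Wt members (-1.38, -3.71 to 0.26).

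The NF-κB pathway showed no shift that held in restricted members. Of 25 listed genes 22 were measured, with a median of 0.27 (0.03 to 0.49), 17 above 0, 2 over 2-fold higher and 0 over 2-fold lower. The median was -0.04 in restricted members and -0.50 without the collagen limit. *Nfkbia*, the inhibitor that NF-κB itself induces, had 1057 CPM in the Gata3KO members and 433 CPM in the Wt members (log2 ratio 1.29, 0.94 to 1.62), and 0.69 in restricted members. *Traf1* had 1615 and 1579 CPM (0.03), *Nfkb2* a log2 ratio of -0.42 (-1.30 to 0.36), *Birc3* of -0.05 (-0.77 to 0.61) and *Nfkbib* of -1.03 (-2.52 to 0.16). Among survival genes, *Mcl1* was level (0.10, -0.26 to 0.43) and the BCL2-related *Bcl2a1a* lower (-0.95, -1.76 to -0.23), though its paralogs *Bcl2a1b* (-0.30) and *Bcl2a1d* (0.31) share reads with it.

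Costimulatory and regulatory genes went both ways at low counts. The medians were 0.23 over 11 measured costimulation genes and 0.04 over 12 measured regulatory genes, and -0.23 and -0.14 in restricted members. In restricted members 9 costimulation genes were measured, 3 of them over 2-fold lower. Without the collagen limit the costimulation median was -0.85. *Cd83*, a surface protein of mature dendritic cells, had 884 CPM in the Gata3KO members and 901 CPM in the Wt members (-0.03, -0.37 to 0.30), and -0.74 in restricted members. *Cd86*, a ligand that costimulates T cells, had 112 and 195 CPM (-0.81, -1.85 to 0.09), and in restricted members 14.6 and 225 CPM (-3.94). *Cd40*, the receptor through which T cells license dendritic cells, was 0.33 in all members and -3.16 in restricted members (29.3 and 261 CPM). *Ly75*, the uptake receptor DEC-205, had 2 UMIs in 2 Gata3KO members and 65 UMIs in 24 Wt members (-2.43, -5.51 to -0.52). In restricted members the Gata3KO levels of *Cd86*, *Cd40* and *Ly75* (29.3 CPM) were below the floor of 3 counts (43.9 CPM), so those drops are uncertain in size. *Cd274*, the gene of PD-L1, had 193 and 131 CPM (0.55, -0.25 to 1.29), *Cd200*, an inhibitory ligand, had 81.3 and 189 CPM (-1.22) and *Socs2* 477 and 741 CPM (-0.63, -1.10 to -0.20). The cytokine gene *Il12b* had 9 UMIs in 2 Gata3KO members and 60 UMIs in 11 Wt members (-0.14), and -1.51 in restricted members.

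Genes of migration and the cytoskeleton had a median of 0.03 over 26 measured genes, of -0.10 in restricted members and of -0.40 without the collagen limit. The actin genes *Actb* and *Actg1* had log2 ratios of -0.24 and 0.03, and *Tmsb4x*, a thymosin that binds actin monomers, of -0.15. *Tmsb10*, an actin-binding thymosin, was lower, with 711 CPM in the Gata3KO members and 1978 CPM in the Wt members (-1.48, -1.85 to -1.13), and -2.16 in restricted members. *Marcksl1*, a substrate of protein kinase C at the membrane, had 660 and 1100 CPM (-0.74). *Cd44*, a hyaluronan receptor, had 284 and 96.0 CPM (1.57, 0.86 to 2.24) and *Samsn1*, an adaptor, 975 and 647 CPM (0.59, 0.25 to 0.92).

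Among metabolic genes, those of glycolysis were mostly higher over all Gata3KO members and those of cholesterol synthesis mostly lower. Glycolysis genes had a median of 0.77 (0.07 to 1.37) with 10 of 11 above 0 and 5 over 2-fold higher. In restricted members 7 were measured, with a median of 0.35 (-0.68 to 0.79), 4 above 0 and 0 over 2-fold higher. *Pfkp* (1.51 in all members) stood at -1.86 in restricted members but was not among those 7. *Gapdh* had 742 CPM in the Gata3KO members and 446 CPM in the Wt members (0.73, 0.34 to 1.11). Genes of cholesterol synthesis and lipid handling had a median of -0.76 (-1.64 to -0.05) with 8 of 9 below 0, and of -1.03 without the collagen limit. The restricted members gave a median of -0.87 over 10 of these genes, with 8 below 0 and an interval that includes 0 (-1.56 to 0.02). Over all members *Idi1*, an isoprenoid enzyme, had 6 and 125 UMIs (-1.79, -3.26 to -0.63) and *Hmgcs1*, the enzyme that makes the first committed precursor, 9 and 125 UMIs (-1.20, -2.37 to -0.23). Nuclear genes of oxidative phosphorylation were level, with a median of 0.02 over 44 genes. *Ucp2*, the mitochondrial uncoupling protein, had 965 CPM in 11 Gata3KO members and 576 CPM in 59 Wt members (0.74, 0.40 to 1.08), and 0.81 in restricted members.

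Transcription factors of dendritic cells had a median of 0.16 over 17 measured genes, with 3 over 2-fold higher and 0 over 2-fold lower. In restricted members 1 of 14 was over 2-fold higher, with a median of 0.16, and without the collagen limit the median was -0.68. *Id2*, a factor of dendritic cell development, had 538 CPM in the Gata3KO members and 265 CPM in the Wt members (1.03, 0.55 to 1.48), and *Irf8*, a lineage factor of type 1 cells, 417 and 612 CPM (-0.55, -1.06 to -0.09). *Etv3*, *Nr4a3* and *Batf3* had intervals that included 0. Early response genes, which tissue dissociation induces, had a median of 0.39 over 20 genes in all members and -0.41 over 13 genes in restricted members. The sign thus changed with the members left out, though the genes measured changed too. With every member weighted alike the median was 0.38. In the *Cd209a* barcodes all 23 measured early response genes lay above 0, with a median of 0.95.

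**Figure D5:**
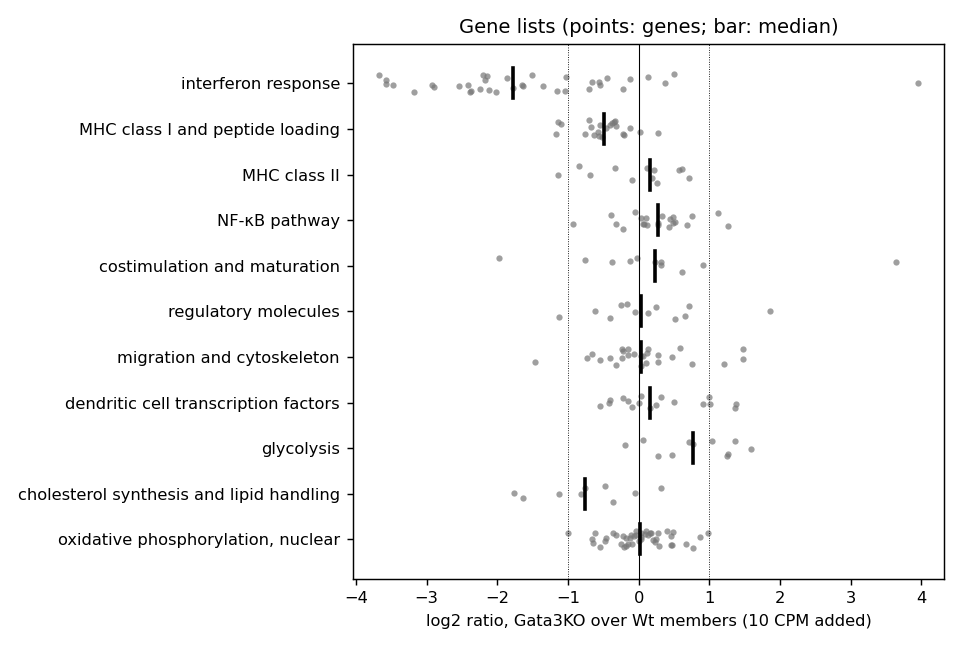
Log2 ratio of Gata3KO over Wt members (x axis, 10 CPM added) for each measured gene (points) of 11 gene lists (rows), with the list median as a bar; dotted lines mark 2-fold. The interferon-response median lies at -1.78 and that of MHC class I at -0.50, while the medians of MHC class II, migration and oxidative phosphorylation lie between 0.02 and 0.16.

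The genes furthest apart over all members mostly reflected single barcodes. Of the 12 genes furthest lower in the Gata3KO members, 10 had most of their Wt UMIs in 1 barcode. *Fabp4*, *Sparc*, *Igfbp7*, *Cav1*, *Col4a1*, *Col4a2*, *Ctla2a*, *Egfl7*, *Cdh5* and *Sparcl1*, several of them known from endothelium, came from the Wt barcode with endothelial genes. The remaining ones were *Ccl5* and *Isg15*. Of the 12 genes furthest higher, 8 had most of their Gata3KO UMIs in 1 barcode, among them *Cxcl9*, *Tnfsf9*, *Nr4a1* and *Gdpd3*. *Gdpd3*, a lysophospholipase D, had 14 UMIs in 4 Gata3KO members, 8 of them in 1, and 0 in the Wt members.

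In restricted members the genes furthest lower were named only among genes without most of their Wt UMIs in 1 barcode. *Ly6a*, the surface antigen Sca-1 that interferon induces, had 0 UMIs in 9 Gata3KO members and 358 UMIs in 29 of 58 Wt members, at least 17.3-fold lower with a floor of 3 UMIs over the group. *Plac8*, a gene of monocytes and interferon-exposed cells, had 0 and 319 UMIs, at least 15.4-fold lower, and was seen in 29 Wt members. Over all members *Ly6a* had 22 UMIs, all in 1 Gata3KO member, and 571 UMIs in 37 Wt members (log2 ratio -2.11, -2.79 to -1.49). *Plac8* had 7 UMIs in 2 Gata3KO members and 333 UMIs in 33 Wt members there (-2.98, -4.31 to -1.92). Over the whole gate without the collagen limit both turned, *Ly6a* to 0.44 and *Plac8* to 0.58. *Ccnd2*, the cell cycle regulator cyclin D2, had 7 UMIs in 3 Gata3KO members and 401 UMIs in 48 Wt members (-3.06, -4.38 to -2.00). *Ifi27l2a*, another interferon-induced gene, had 55 and 1739 UMIs (-2.20, -2.61 to -1.81) and was seen in 5 and 55 members. *Ms4a4c*, *Ms4a6b* and *Ms4a6c*, related genes of a family of membrane proteins, had 6, 2 and 4 UMIs in the Gata3KO members and 450, 166 and 235 UMIs in the Wt members, and their near-identical sequences make the split between them uncertain. The set also held *Ccl5*, *Isg15*, *Ifit1*, *Ly6e* and *Irf7*.

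Several of these genes were lower in the other barcodes of the Gata3KO library as well. *Ly6a* had 264 CPM in the Gata3KO and 1413 CPM in the Wt *Cd209a* barcodes, and 86.7 and 569 CPM in the C1q barcodes. *Plac8* had 678 and 2344 CPM in the *Cd209a* barcodes and 61.9 and 392 CPM in the C1q barcodes. *Ccnd2* had 58.5 and 118 CPM in the *Cd209a* barcodes and 6.24 and 16.0 CPM in the C1q barcodes. *Ms4a6c* differed less there, with 1042 and 1374 CPM in the *Cd209a* barcodes and 665 and 710 CPM in the C1q barcodes.

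The genes furthest higher in restricted Gata3KO members rested on small counts. They were named only among genes without most of their Gata3KO UMIs in 1 barcode. *Fyb*, an adaptor that links immune receptors to adhesion, had 30 UMIs in 5 of 9 Gata3KO members and 44 UMIs in 19 of 58 Wt members (log2 ratio 2.23, 1.51 to 2.93). With every member weighted alike over the whole gate its value was -0.02. *Serpinb6b*, a serine protease inhibitor, had 22 and 41 UMIs (1.89, 1.07 to 2.67), *Gpr137b*, a lysosomal membrane protein, 35 and 75 UMIs (1.69) and *Cotl1*, an actin-binding protein, 29 and 70 UMIs (1.51). *Kctd12b*, *Ext1*, *Sema6d*, *Rbmx*, *Sox4*, *Tnip3*, *Rab11fip1* and *Sepsecs*, the other genes of the set, had between 7 and 17 Gata3KO UMIs each. *Lgals3*, galectin-3, a lectin of macrophages and dendritic cells, was higher both over all members (1544 and 544 CPM, 1.5, 1.22 to 1.79) and in restricted members (1.60), and was seen in 10 of 12 Gata3KO members and 52 of 68 Wt members.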

How the data were processed

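The authors deposited, for each of the 2 libraries, a table of UMI counts per gene and barcode, not normalized. Reads had been processed against mm10 with Cell Ranger 3.0.1 and Seurat 3.0.2 in R 3.6.1, per the submitters' processing notes; no source used here gives the filters applied before deposit. UMI counts were summed over the barcodes of each set and scaled to CPM. Single genes have the log2 ratio of the sums with an exact conditional binomial interval, shares a Clopper-Pearson interval at the 95% level, and the difference of shares an interval built from those of the 2 shares; all cover counting error only. Lists have the median log2 ratio with 10 CPM added, over genes with a mean of at least 50 CPM in the sets compared, without *Ccr7* and *Fscn1*; its interval is an order-statistic interval over genes, and called means past 2-fold. A group at 0 UMIs is given a floor of 3 counts.

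The members, gene lists and rules were chosen with earlier results of these data known. Named are the label genes, the 12 genes each way whose interval lies furthest from 0 (passing over *Xist*, Y-linked, mitochondrial, ribosomal, haemoglobin, immunoglobulin and predicted genes), the 15 genes furthest higher than in C1q barcodes and 10 each way against *Cd209a* barcodes, and from each list the extremes and genes whose role is explained. The restricted members, and the naming in them, were added after seeing the data, as were *Lgals3*, *Lyz2* and *Adgre1* as examples. That naming used the same rule but passed over genes with most of their UMIs in 1 barcode of the higher library. Depth was matched by thinning to 2000 UMIs with a fixed seed. Scrublet (in scanpy 1.11.5) called 0 doublets, so it did not work here. Gene positions are from GENCODE M21, which named 13170 of the 13289 genes in both tables; promoters are from RefSeq. Python 3.11.15, numpy 2.4.6, pandas 2.3.3, scipy 1.17.1 and matplotlib 3.10.9 were used, and the ratio script was tested on simulated data.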

Additional observations from a re-analysis of the deposited data

How the results depend on the processing

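No paired analysis was possible because each genotype has 1 library. The difference in share stayed negative in every setting tried, from -4.00 to -0.903 percentage points; it was -3.90 with a limit of 10% mitochondrial UMIs, -4.00 with the gate on *Ccl22*, *Il4i1* and *Cacnb3*, and -0.903 after thinning to 1000 UMIs. The settings on at least 3 markers, restricted members, the other gate and the highest 5% of doublet scores were added after seeing the data, and leaving out called doublets changed nothing as 0 were called. The count of genes over 2-fold higher was 346 with every member weighted alike, 817 without a filter on low values and 67 with a mean of at least 100 CPM; over 2-fold lower it was 1434 without the filter and 86 at 100 CPM. Without the filter the median of all genes was -0.22. The interferon median ranged from -2.28 to -0.80, with -0.80 without the collagen limit, -2.28 without members of 5 or more C1q UMIs and -2.26 in restricted members. Without the collagen limit the gate gained 5 Gata3KO and 10 Wt barcodes, and the medians were -0.50 for NF-κB, -0.88 for MHC class II, -0.85 for costimulation, -0.68 for dendritic cell transcription factors, -0.40 for migration, -0.21 for macrophage genes and -1.03 for cholesterol synthesis and lipid handling. The NF-κB median also turned to -0.041 with at least 3 markers, to -0.042 in restricted members and to -0.0046 with members weighted alike. Of 50 single genes followed over up to 19 settings (925 values, since a gene at 0 in both libraries gives none), 35 had no reversed value. The log2 ratios that turned (10 CPM added) were *Igfbp7* 0.064, *Col4a1* 0.28 and *Col4a2* 0.50 with a gate sum of at least 2; *Ccl22* -0.37, *Sparc* 0.42, *Igfbp7* 0.29, *Ly6a* 0.44 and *Plac8* 0.58 without the collagen limit; *Ccl22* -0.060, *Cxcl9* -4.15, *C3* -0.64 and *Lap3* -1.08 without C1q-bearing members; *Tnfsf9* -1.44 and *Nr4a1* -1.80 with at least 3 markers. In restricted members they were *Cxcl9* -4.03, *C3* -0.71, *Tnfsf9* -1.54, *Nr4a1* -1.91, *Egr1* -0.71, *Lap3* -0.71 and *Fabp4* 0.15, and with members weighted alike *Fyb* -0.020. The cause of each was not tested, beyond the members that a setting leaves out or adds. With 98433 UMIs in 12 Gata3KO members, a gene under 30.5 CPM there is below the floor of 3 counts.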
